A study of Homo sapiens with 4 samples.

Results

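Integrins are receptors of the cell surface that hold cells to the extracellular matrix, and each is a pair of 1 alpha and 1 beta chain. Here 10 subunit genes, 7 alpha and 3 beta, of the 33538 genes in the count matrices were described: ITGA1, ITGA2 and ITGA11, whose pairs with beta 1 bind collagens; ITGA3, whose pair with beta 1 binds laminins; ITGA4, ITGA5 and ITGAV, whose pairs bind fibronectin, vitronectin or both; and the beta chains ITGB1, ITGB3 and ITGB5. They were chosen by symbol from a fixed list of names, and all 10 are listed in every library.

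The cells were HCEC 1CT, an established human line of colonic epithelium made immortal by telomerase and CDK4, and they were profiled by single-cell RNA sequencing. One group of cells received an shRNA against APC (shAPC), the scaffold protein that restrains beta-catenin and is lost early in most colorectal cancers, and the control received a scrambled shRNA (shScr). Both were harvested 3 and 7 days after transduction, all after puromycin selection, which gives 4 libraries with 1 library in each group. Values are listed in the order shScr day 3, then shAPC day 3, followed by shScr day 7, then shAPC day 7. One line, 1 shRNA and 1 library per group were used. Differences between libraries were therefore not tested, no p-value is given, and every interval is a 95% interval for counting error alone, which says nothing of the spread between cultures.

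Cells were the barcodes holding 200 or more genes, 500 or more UMIs (unique molecular identifiers, each marking 1 captured RNA molecule) and under 5% mitochondrial UMIs. There were 1116, 788, 2600 and 1478 cells in the order above, with 28451455 to 39797418 UMIs in each library. The median per cell was 35109, 49685.5, 1330 and 21029.5 UMIs, so that shScr day 7 stood apart with shallow barcodes. The mitochondrial limit removed 51.3% of the barcodes of shAPC day 7 against 24.1% to 28.8% of the others, and pairs of libraries shared 2 to 25 barcodes. APC was lower in shAPC than in shScr at both days, by log2 differences of -1.54 and -1.53. Genes of interferon and stress responses moved with the shRNA as well: 7 of 7 were at least 1.5-fold higher in shAPC at day 3, with a summed level of 587 CPM in shScr (counts of a gene scaled to a common library total) and 3285 in shAPC, and 6 of 7 were lower at day 7, with 776 in shScr and 302 in shAPC. Their part in the differences given here was not tested.

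The labelled cell type was checked first, since integrins differ between epithelia and other tissues. Of 12 genes of the colonic epithelium, 4 exceeded 3 UMIs in any library, led by KRT8, a keratin of simple epithelia, at a mean of 14.2 CPM, and CLDN7, a tight junction protein, at 9.93. KRT18 and KRT19 had means of 4.87 and 4.01 CPM, and the 12 genes summed to 29.2, 49.3, 25.0 and 29.1 CPM. KRT8 and CLDN7, the 2 that passed the filter used for calls, were higher in shAPC at day 3, by log2 0.59 and 0.97. The median of all tested genes was 0.31 in that comparison, and 21.5% were at least 1.5-fold higher. At day 7 KRT8 was again at least 1.5-fold higher, where 4.36% of all tested genes were. CLDN7 was 7.91 CPM in shScr and 6.26 in shAPC at day 7. The part of KRT8 and CLDN7 in the differences of the subunits was not tested. The adhesion protein EPCAM reached at most 2 UMIs, and CDX2, the transcription factor of intestinal identity, had 0 in all 4 libraries. All 8 genes of mesenchymal cells were detected, among them the intermediate filament VIM at a mean of 4575 CPM. The collagen I chains COL1A1 and COL1A2 had means of 1344 and 760 CPM, and DCN 275. The cells thus held keratins at low levels and lacked or nearly lacked EPCAM and CDX2. Of 5 leukocyte genes, CD68, a lysosomal protein also made outside that lineage, had a mean of 22.3 CPM, CD14 had 3 to 28 UMIs in a library, and PTPRC, which defines leukocytes, at most 1. Of 4 endothelial genes, KDR and VWF had means of 0.11 and 0.07 CPM, PECAM1 had at most 1 UMI in a library and CDH5 had 0. Of 3 muscle genes, ACTG2 was 1.26, 2.63, 2.34 and 6.82 CPM in the 4 libraries, and DES and MYH11 had means of 0.31 and 0.11. The part of ACTG2 in the differences of the subunits was not tested.

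The promoters of 3 subunits are shown because their direction was shared by both days: ITGAV and ITGB5, an alpha and a beta chain that pair with each other, were lower in shAPC at each day, and ITGA1 was higher at each day. They were chosen after their values were seen, and ITGA4, ITGA5 and ITGB1 also kept 1 direction in CPM. Each line gives 200 bases, 5′ to 3′ on the strand of the gene, from RefSeq on GRCh38.p14. For ITGB5 and ITGA1 they end just before the RefSeq transcript start. For ITGAV they end just before the gene start in GENCODE, which leaves out the 46 bases before the RefSeq start. ITGAV is read from chr2:186589810-186590009 on the plus strand, ITGB5 from chr3:124901419-124901618 on the minus strand and ITGA1 from chr5:52787716-52787915 on the plus strand. Capitals mark the core motif of the TCF/LEF factors that act with beta-catenin (CTTTGA) and the GC box bound by SP1 (GGGCGG), each in either direction.

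ITGAV: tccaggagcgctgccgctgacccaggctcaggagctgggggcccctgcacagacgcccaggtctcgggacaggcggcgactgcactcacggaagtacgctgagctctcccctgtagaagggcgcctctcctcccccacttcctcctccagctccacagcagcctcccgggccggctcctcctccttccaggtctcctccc

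ITGB5: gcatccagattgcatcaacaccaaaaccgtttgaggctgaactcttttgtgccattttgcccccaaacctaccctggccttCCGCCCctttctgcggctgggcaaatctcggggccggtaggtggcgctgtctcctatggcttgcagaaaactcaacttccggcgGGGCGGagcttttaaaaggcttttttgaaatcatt

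ITGA1: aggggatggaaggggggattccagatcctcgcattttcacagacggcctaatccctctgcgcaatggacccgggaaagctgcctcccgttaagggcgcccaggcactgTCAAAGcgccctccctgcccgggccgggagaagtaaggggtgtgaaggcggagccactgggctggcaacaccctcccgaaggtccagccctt

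The ITGA1 window held 1 TCF/LEF core, read on the opposite strand, and the ITGB5 window held 2 GC boxes, 1 in each direction. Neither motif occurred in the ITGAV window, and the 46 bases just before the RefSeq start of ITGAV were not searched. Of the 6 subunits with a window, only ITGA1 held the TCF/LEF core. ITGA5, which is not shown, held neither motif. Of 35116 promoters of the same length, all ending at the RefSeq start, 8.82% held the TCF/LEF core and 40.1% the GC box. The window of ITGB5 had 53.0% G and C, below the median of 59.0%, whereas those of ITGA1 and ITGAV had 64.0% and 69.5%. The AP-1 motif TGANTCA and TATAAA were searched too and occurred in none of the 3, against 5.38% and 8.59% of all promoters. A match of letters is a description, and binding was not measured.

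On hg38 with GENCODE release 44, ITGAV lies at chr2:186590010-186680901, ITGB5 at chr3:124761948-124901418 and ITGA1 at chr5:52787916-52959209. ITGA1 overlaps PELO, a gene of ribosome rescue, on the same strand, and its values are uncertain to the extent that reads could not be told apart. Of the genes in the count matrices, ITGB1, ITGA5, ITGA4, ITGA2, ITGAV and ITGB5 overlap only ones on the opposite strand. ITGB3 also overlaps a gene without a symbol on its own strand, and ITGA3 and ITGA11 overlap none. The strand of overlapping genes outside the matrices was not read.

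Levels are given as CPM, the UMIs of a gene summed over the kept cells of a library scaled to a total of 1e6 UMIs. One UMI stands for 1 captured molecule, not for a length of transcript, so these levels need no correction for length, but capture can differ between genes. ITGB1, the beta chain that pairs with most alpha chains, was the most abundant subunit in every library. Its level was 706 CPM (698 to 715) in shScr day 3, 766 (757 to 775) in shAPC day 3, 543 (535 to 551) in shScr day 7 and 641 (631 to 650) in shAPC day 7. It was followed by ITGA5, the alpha chain of the main fibronectin receptor, at 348, 514, 214 and 232 CPM in the same order. The order of the next subunits differed between libraries. In shScr day 3 ITGAV, at 57.3 CPM, and ITGB5, at 53.4, came next with overlapping intervals, ahead of ITGA3, ITGA2 and ITGA1.

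**Figure D1:**
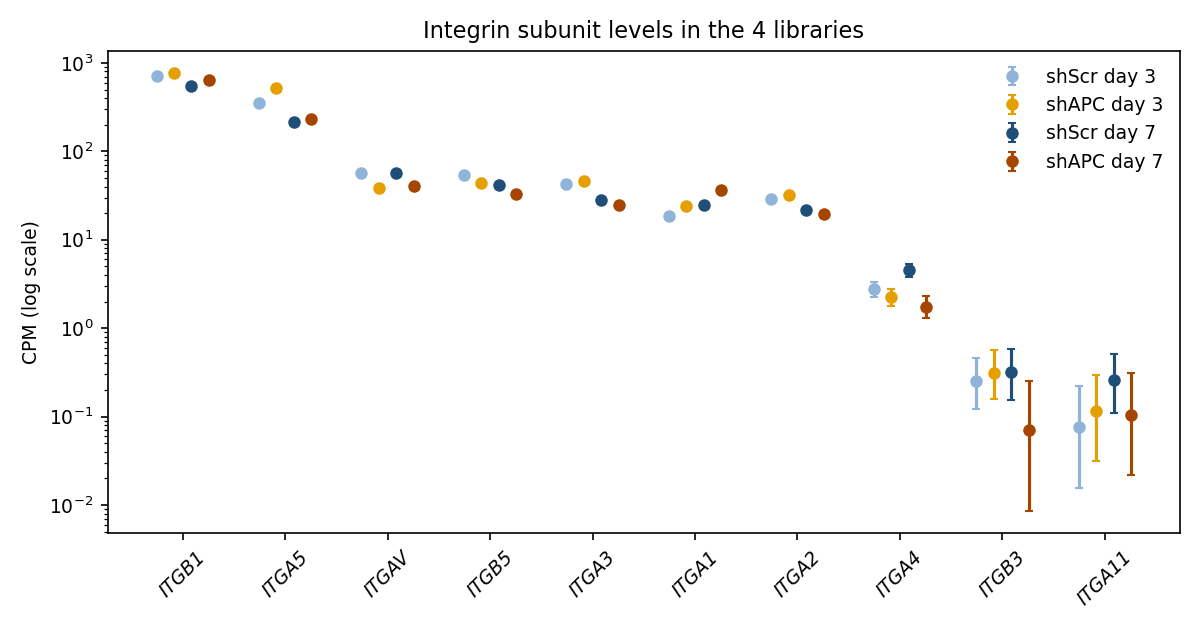
Levels of the 10 integrin subunits in the 4 libraries, in CPM on a logarithmic axis, with 1 point per library and bars for the 95% counting interval. ITGB1 and ITGA5 stand above the rest in every library, and ITGA3 and ITGA5 are lower at day 7 than at day 3 with either shRNA.

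The place of ITGA1 in this order differed between libraries. It was the lowest of the 7 well measured subunits in shScr day 3, at 18.7 CPM (17.4 to 20.1). In shAPC day 7 it was the fourth, at 36.3 CPM (34.1 to 38.6), and its interval overlapped those of ITGAV above it, at 40.6 (38.3 to 43.0), and ITGB5 beneath it, at 33.1 (31.1 to 35.3). In shAPC day 3 the third place belonged to ITGA3, at 46.7 CPM, with an interval that overlapped that of ITGB5, at 44.0. In shScr day 7 ITGA1 and ITGA2 overlapped, at 24.5 and 21.4 CPM.

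The other 3 subunits were rare. ITGA4, an alpha chain best known from leukocytes, had 109, 78, 142 and 50 UMIs in the 4 libraries, which is 2.74, 2.23, 4.55 and 1.76 CPM. ITGB3, the beta chain of the platelet fibrinogen receptor and of the vitronectin receptor with alpha V, had 10, 11, 10 and 2 UMIs. ITGA11, a collagen receptor of fibroblasts, had 3, 4, 8 and 3 UMIs. These 3 did not reach a mean of 5 CPM over the 4 libraries and were left out of the counts of called genes, which were made over 9173 genes, 7 of them subunits.

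A gene was called where its CPM differed by at least 1.5-fold between 2 libraries. At day 3, none of the 7 subunits was called in shAPC against shScr, while 21.5% of all tested genes were called higher and 1.52% lower. The median log2 difference was 0.12 over the 7 subunits and 0.31 over all tested genes, and so the general level of a gene was shifted upward in this comparison. At day 7, none was called either, against 4.36% of all genes higher and 7.45% lower, with medians of -0.14 for the subunits and -0.04 for all genes. The count of 0 rests on the limit in 3 cases, since ITGA5 and ITGAV at day 3 and ITGA1 at day 7 lay just inside it. It rests on the scale too. Against the median of all genes, ITGAV and ITGB5 passed the limit at day 3, at -0.88 and -0.59. ITGA1 passed it at day 7, at 0.61, and ITGA5 at day 3 was 0.25.

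ITGA5 was 1.48-fold higher in shAPC at day 3, with 348 CPM in shScr and 514 in shAPC, a log2 difference of 0.56 (0.53 to 0.60). At day 7 it was 214 against 232 CPM, a log2 difference of 0.12 (0.07 to 0.17). ITGA5 differed between the days by -0.44 (-0.50 to -0.38), outside counting error, but by -0.09 against the median of all genes. Its direction was the same in all 12 alternative settings of scale and cells, and against the median of all genes it was higher by 0.25 and 0.16. ITGB1, its partner chain, was higher in shAPC by log2 0.12 (0.09 to 0.14) at day 3, a direction that turned to -0.20 against that median and to -0.26 with TMM scaling. At day 7 ITGB1 was higher by 0.24 (0.21 to 0.27), or 0.28 against the median.

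ITGAV, which pairs with beta 1, beta 3 and beta 5 and binds vitronectin and fibronectin, was 57.3 CPM in shScr and 38.8 in shAPC at day 3. At day 7 it was 56.3 and 40.6 CPM. It was thus 1.48-fold and 1.39-fold lower in shAPC. The log2 differences were -0.56 (-0.66 to -0.47) and -0.47 (-0.58 to -0.36), and the interval of their difference, 0.09, included 0. Against the median of all genes ITGAV was lower in shAPC by -0.88 at day 3 and -0.43 at day 7. On that scale ITGAV differed between the days by 0.45. Its partner ITGB5, the beta chain that binds vitronectin together with alpha V, was 53.4 CPM in shScr and 44.0 in shAPC at day 3, and 41.2 and 33.1 CPM at day 7. These are log2 differences of -0.28 (-0.37 to -0.18) and -0.31 (-0.44 to -0.19). Both genes were lower in shAPC at each day under all 12 settings. The shAPC and shScr matrices were counted with different versions of Cell Ranger, and an effect of version and of shRNA cannot be told apart.

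ITGA1 was the alpha chain that was highest in shAPC relative to control at day 7. Its levels were 18.7 CPM in shScr and 24.2 in shAPC at day 3, and 24.5 and 36.3 at day 7, log2 differences of 0.37 (0.23 to 0.51) and 0.57 (0.43 to 0.70). At day 3 the difference was close to the shift of all genes, since against their median it was 0.06 with an interval that included 0. At day 7 it was 0.61 on that scale. Over the 12 settings it ranged from 0.55 to 0.95 at day 7 and from -0.01 to 0.66 at day 3.

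The other collagen receptor chain, ITGA2, differed little with the shRNA, at 29.3 and 32.0 CPM at day 3 and 21.4 and 19.5 CPM at day 7. The day 3 log2 difference of 0.13 (0.01 to 0.25) turned to -0.18 against the median of all genes, and that at day 7, -0.14 (-0.30 to 0.03), was not outside counting error. ITGA3, the laminin receptor chain of epithelia, was 42.9 and 46.7 CPM at day 3 and 28.3 and 24.5 CPM at day 7. Its log2 differences had opposite signs, 0.12 (0.02 to 0.22) and -0.21 (-0.36 to -0.07), but against the median of all genes both were negative, at -0.19 and -0.17, and with each cell weighted alike the day 7 value was 0.12.

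**Figure D2:**
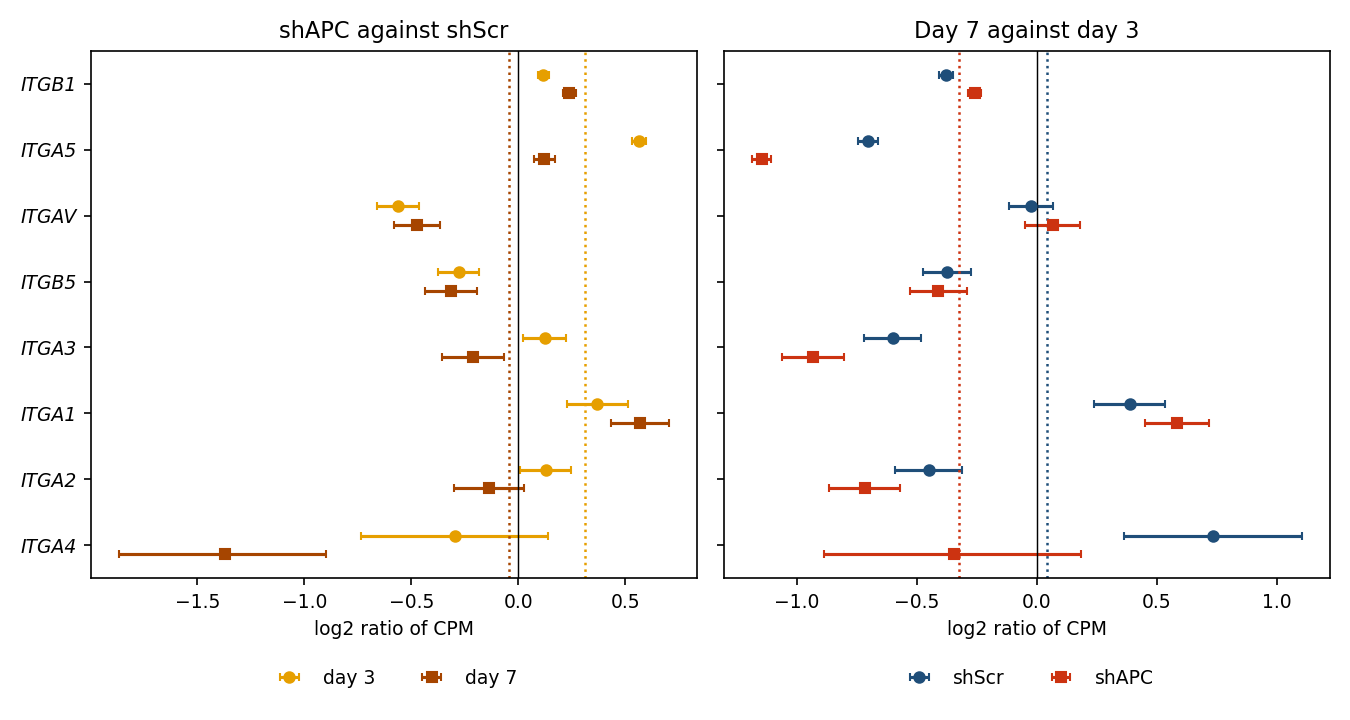
Log2 ratios of CPM with 95% counting intervals for the 8 subunits with at least 50 UMIs in every library, shAPC against shScr at each day (left) and day 7 against day 3 with each shRNA (right). Dotted lines mark the median of all tested genes in the comparison of the same colour. ITGAV and ITGB5 lie left of 0 at both days, ITGA1 lies right of 0 in all 4 comparisons (-0.01 at day 3 with TMM scaling), and ITGA5 lies farthest left in time with shAPC.

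ITGA4 had the widest relative difference of the subunits outside counting error. It was 4.55 CPM (3.83 to 5.36) in shScr day 7 and 1.76 (1.30 to 2.32) in shAPC day 7, a log2 difference of -1.37 (-1.87 to -0.90) or 2.59-fold lower. At day 3 the log2 difference was -0.30 (-0.73 to 0.14). The days differed by -1.08 (-1.70 to -0.45), or by -0.72 against the median of all genes. From day 3 to day 7 ITGA4 was higher with shScr, by 0.73 (0.36 to 1.10). With shAPC its change in time was -0.34 (-0.89 to 0.19), or 0.76 with each cell weighted alike. Only 50 to 142 UMIs stand behind each value. For ITGB3, 2 UMIs in shAPC day 7 against 10 in shScr day 7 gave a log2 difference of -2.19 with an interval from -5.42 to 0.04, and for ITGA11 the interval included 0 in every comparison, so that no difference was detectable at this depth.

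From day 3 to day 7, 2 of the 7 subunits were called lower with shScr, where 3.61% of all genes were, and none higher, where 3.56% were. With shAPC, 3 were called lower, where 23.9% of all genes were, and none higher, where 1.07% were. The medians were -0.38 for the subunits and 0.04 for all genes with shScr, and -0.41 and -0.33 with shAPC. ITGA5 and ITGA3 were called lower with both shRNAs. ITGA5 was lower by -0.70 (-0.75 to -0.66) on the log2 scale with shScr and by -1.15 (-1.19 to -1.10) with shAPC, where its 232 CPM at day 7 compare with 514 at day 3. ITGA3 was lower by -0.60 and -0.93. With the all-gene median taken off, ITGA5 was lower by -0.74 with shScr and by -0.82 with shAPC. ITGA3 was then lower by -0.64 and -0.61. On that scale each of these genes fell by similar amounts with either shRNA. ITGA2 joined them with shAPC, at -0.72 (-0.87 to -0.57), and had -0.45 (-0.59 to -0.31) with shScr, which became 0.21 with each cell weighted alike. Against the median of all genes the value with shAPC was -0.39, short of the limit, and the count of subunits called lower was then 2, as it was with TMM and with DESeq2 size factors.

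ITGA1 went the other way, at 0.39 (0.24 to 0.53) with shScr and 0.58 (0.45 to 0.72) with shAPC, the latter just within the limit. Against the median of all genes ITGA1 was higher by 0.35 with shScr and by 0.91 (0.78 to 1.04) with shAPC, the latter past the limit. For ITGAV the values were -0.03 and 0.07, both intervals including 0, but against the median of all genes it was higher at day 7 with shAPC, by 0.39 (0.28 to 0.51). ITGB1 was lower at day 7 by -0.38 and -0.26, but against the median of all genes it was 0.07 higher with shAPC, and with each cell weighted alike it was higher by 0.18 and 0.14. ITGB5 was lower by -0.37 and -0.41, and against that median by -0.42 with shScr and -0.08 with shAPC, the last with an interval that included 0. The direction for ITGA5, ITGA3 and ITGA1 was the same in all 12 settings with each shRNA.

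The share of each chain among the alpha UMIs does not depend on how libraries are scaled. ITGA5 made up 69.7% of them in shScr day 3, 78.1% in shAPC day 3, 61.2% in shScr day 7 and 65.4% in shAPC day 7. ITGAV made up 11.5%, 5.89%, 16.1% and 11.4%, and ITGA1 3.76%, 3.68%, 7.02% and 10.2%. ITGAV thus had a smaller share with shAPC than with shScr at each day, while ITGA1 had a larger share with shAPC at day 7 and about the same at day 3. ITGA3, with 8.61%, 7.10%, 8.12% and 6.90%, had a smaller share with shAPC at each day, whereas ITGA2, with 5.87%, 4.86%, 6.14% and 5.48%, had overlapping intervals at day 7.

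**Figure D3:**
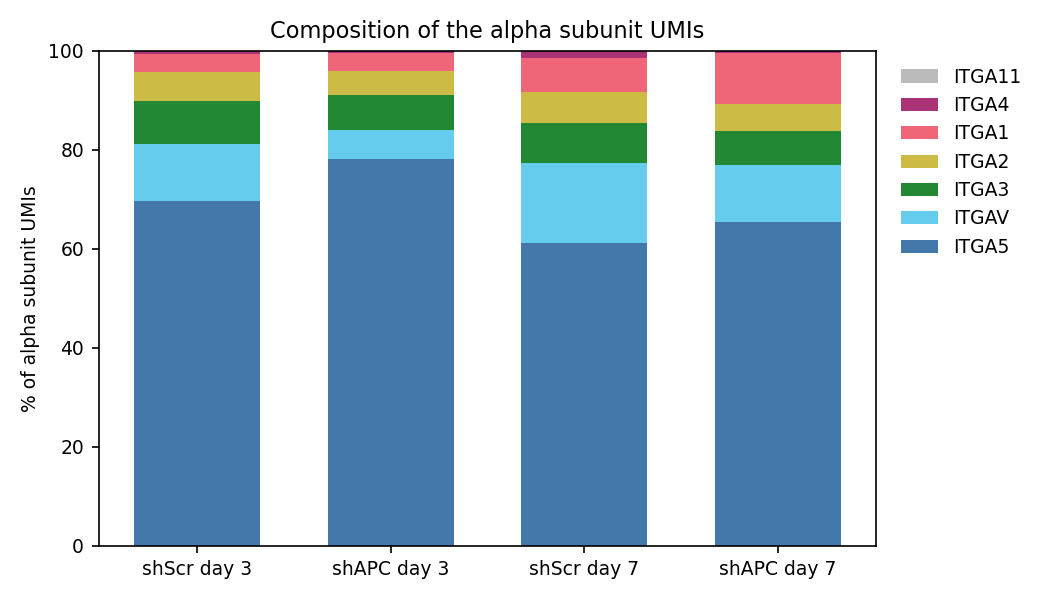
Share of each alpha chain among the summed UMIs of the 7 alpha subunits in each library, in percent, as stacked bars from 0 to 100. ITGA5 fills 61.2% to 78.1% of each bar, and the share of ITGA1 is widest in shAPC day 7.

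The balance of beta 1 to its partners moved too. There were 1.42 ITGB1 UMIs per alpha UMI in shScr day 3 (1.39 to 1.44) and 1.16 in shAPC day 3 (1.14 to 1.18). At day 7 there were 1.56 (1.52 to 1.59) with shScr and 1.80 (1.76 to 1.85) with shAPC. The ratio was thus lower with shAPC at day 3 and higher at day 7. Chains that bind fibronectin or vitronectin held 81.8% and 84.3% of alpha UMIs at day 3, and 78.6% and 77.4% at day 7. The 10 subunits together came to 1259, 1469, 934 and 1029 CPM.

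In single cells, ITGB1 was seen in 80.9%, 87.4%, 62.2% and 81.1% of kept cells and ITGA5 in 76.5%, 80.6%, 43.9% and 66.1%. Such shares move with depth, which was lowest in shScr day 7. Each cell was therefore thinned to 2000 UMIs, which left 899, 673, 1198 and 1087 cells and left out 217, 115, 1402 and 391 shallower ones. The share for ITGB1 was then 65.3%, 71.8%, 58.1% and 65.3%, and that for ITGA5 42.8%, 54.8%, 32.1% and 33.1%. ITGA5 thus kept its high share in shAPC day 3 (51.0% to 58.6%) at equal depth, against 39.6% to 46.1% in shScr day 3.

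The rarer chains were seen in few cells at equal depth. ITGAV was seen in 9.23%, 7.88%, 9.77% and 7.36% of thinned cells, lower with shAPC at each day but with overlapping intervals. ITGA1 was seen in 3.78%, 4.90%, 4.59% and 6.16%, ITGB5 in 10.2%, 7.88%, 6.68% and 6.07% and ITGA3 in 6.67%, 8.47%, 6.09% and 4.97%. ITGA2 was seen in 5.78%, 5.65%, 3.17% and 3.04%, and ITGA4 in at most 1.00%. Integrins of blood cells (ITGAL, ITGAM, ITGB2 and ITGA2B), which these cells should lack, give the background, with 0% to 0.149% of thinned cells. The subunits seen in over 3% of cells lay above it, the interval of ITGA4 overlapped that of the background with shAPC, and ITGB3 and ITGA11, each seen in at most 1 thinned cell of a library, were not above it.

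Cells were also divided by the cell cycle phase assigned from S and G2M gene lists, since a chain may differ between dividing and resting cells. G1 held 715, 511, 867 and 879 cells and G2M 154, 124, 265 and 135. ITGA4 was higher in G2M than in G1 cells of each library, with 3.89 against 2.47 CPM in shScr day 3, 4.24 against 1.81 in shAPC day 3, 6.98 against 3.24 in shScr day 7 and 4.85 against 1.12 in shAPC day 7. On the log2 scale the differences were 0.66 (-0.11 to 1.36), 1.23 (0.46 to 1.95), 1.11 (0.53 to 1.67) and 2.11 (1.11 to 3.06), of which the first was within counting error. Between 16 and 43 UMIs in G2M cells stand behind each. Among 3159 genes of 1 to 5 mean CPM, the range that holds ITGA4, 32.0%, 19.8%, 22.3% and 29.7% were at least 1.5-fold higher in G2M in the same order. ITGA4 lay at percentiles 73.2, 93.3, 90.9 and 96.5 of those genes.

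**Figure D4:**
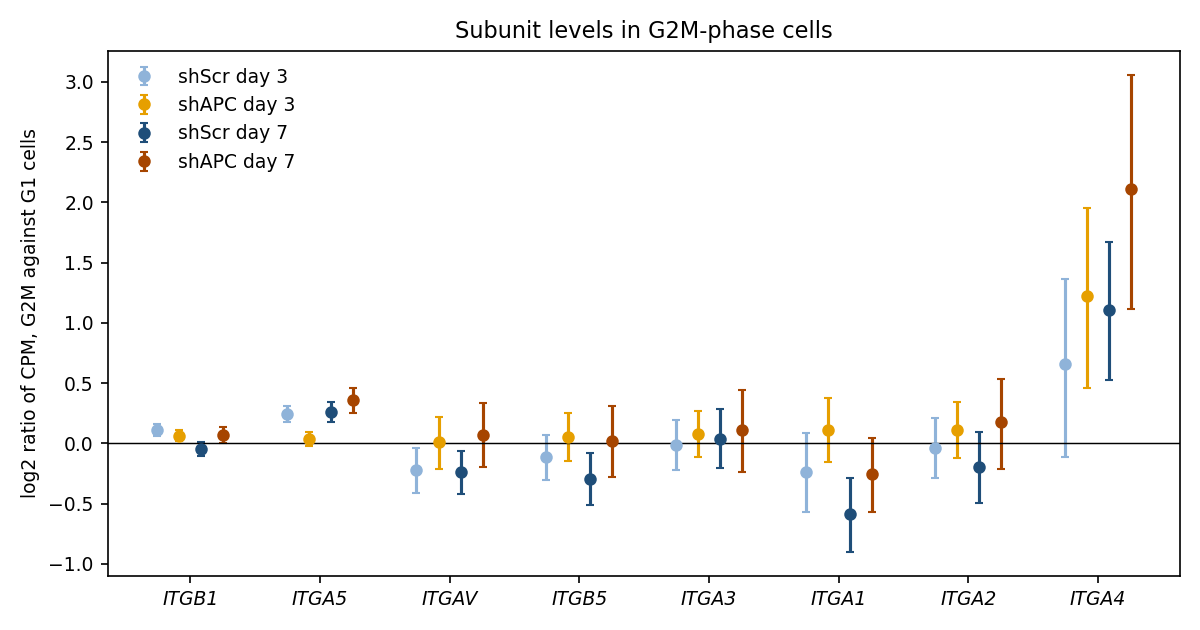
Log2 ratio of CPM in cells assigned to G2M against G1 for the integrin subunits in each library, with 95% counting intervals. ITGA4 lies at 0.66 to 2.11 in the 4 libraries, whereas ITGB1 lies near 0.

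The abundant chains varied less with phase. The median log2 difference of all tested genes, G2M against G1, was 0.31, 0.06, 0.15 and 0.24 in the same order. ITGA5 was higher in G2M by log2 0.24, 0.04, 0.26 and 0.36, with an interval that included 0 in shAPC day 3. It thus lay below that median in both libraries of day 3 and above it in both of day 7. ITGB1 lay between -0.05 and 0.11, below that median in both shScr libraries and in shAPC day 7. ITGA1 was lower in G2M in shScr day 7, by -0.59 (-0.90 to -0.29), and its interval included 0 in the other libraries. ITGAV was lower with both shScr libraries, by -0.22 and -0.24, and at 0.01 and 0.07 with shAPC.

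In shAPC day 3, 44 cells carried ATF3, a stress-induced transcription factor, at 100 CPM or more, and 744 did not. Of the 7 subunits, 4 were at least 1.5-fold lower in those 44 cells, where 15.1% of all tested genes were. ITGA5 was 224 CPM in them and 541 in the others, a log2 difference of -1.27 (-1.38 to -1.16). ITGA2 and ITGA3 differed by -1.63 and -1.31, ITGB1 by -0.70, and ITGA1 was higher, by 0.63 (0.32 to 0.93). Of all tested genes 38.0% were at least 1.5-fold higher in the 44 cells, and the median log2 difference of all was 0.34. The 44 cells held more UMIs, at a median of 77017 against 49062. Without them and the like cells of other libraries, ITGA5 in shAPC day 3 was higher than in shScr day 3 by log2 0.64.

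Other genes of the adhesion system were read from lists of names. Of 16 other integrin genes, 3 passed the filter: ITGAE, which pairs with beta 7 to bind E-cadherin, ITGA6, a laminin receptor, and ITGA10, a collagen receptor. ITGA6 was 11.3 CPM in shScr and 3.76 in shAPC at day 7, and ITGA10 was 7.30 and 2.88. These were the only calls among the 3 in shAPC against shScr, at log2 differences of -1.59 and -1.34. Of all tested genes, 7.45% were called lower at day 7 and 4.36% higher. None of the 3 was called at day 3, where 21.5% of all tested genes were called higher and 1.52% lower. ITGAE lay between 80.2 and 103.7 CPM. ITGB8, which activates TGF-beta with alpha V, had at most 2.39 CPM, and ITGB4 and ITGB6, of epithelia, at most 0.60 and 0.04.

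Of 25 ligands and matrix genes, 17 passed, and 6 were called higher and 1 lower in shAPC at day 7, against 1 and 1 at day 3. Of all tested genes, 4.36% were called higher and 7.45% lower at day 7, and 21.5% and 1.52% at day 3. COL1A1 and COL1A2, the chains of collagen I that the ITGA1 and ITGA2 pairs bind, were 927 and 492 CPM in shScr day 7 and 1485 and 1118 in shAPC day 7, log2 differences of 0.68 and 1.18. The collagen VI chain COL6A2 was higher at both days, by 0.68 and 0.81. THBS1, a matrix protein that binds CD47 and several integrins, was lower at both, at 34.8 against 9.41 CPM at day 3 and 68.0 against 27.0 at day 7. Fibronectin (FN1), the ligand of the ITGA5 pair, lay between 2758 and 3676 CPM with no call in either.

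Of 25 adaptors that link integrin tails to actin, 23 passed, and 2 were higher in shAPC at day 3, where 21.5% of all genes were, and 1 lower at day 7, where 7.45% were. The 3 were BCAR1, FERMT2 and LIMS2, named after their values were seen. FLNA, ACTN1, ZYX and ACTN4, the most abundant, were called in neither. From day 3 to day 7, 6 of the 23 were called lower with shAPC, near the 23.9% of all genes, and 2 with shScr, FLNA and ZYX, where 3.61% of all genes were.

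Of 10 membrane partners, 1 was called higher and 2 lower in shAPC at day 3, against 21.5% and 1.52% of all genes, and 4 were lower at day 7, against 7.45%. The tetraspanin CD9 was 48.3 CPM in shScr and 17.5 in shAPC at day 3, and 51.8 and 13.2 at day 7. The syndecan SDC4, a co-receptor for fibronectin, was 90.9 and 52.2 at day 3, and 82.5 and 32.0 at day 7. SLC3A2, which binds beta 1 tails and carries amino acid transporters, was higher at day 3, at 51.4 and 247 CPM, and was named after its values were seen. Among the most abundant partners, CD63 was 780 CPM in shScr and 660 in shAPC at day 3, and 869 and 470 at day 7, where it was called lower. CAV1 and BSG were called at neither day. CD151, the tetraspanin partner of alpha 3 beta 1, was not called with the shRNA, at 300 and 368 CPM at day 3 and 226 and 232 at day 7.

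The genes whose pattern over the 4 libraries was most like that of a subunit were found among 4508 genes of at least 20 mean CPM, by the root mean square of the difference of centred log2 CPM. For ITGB1 they were TAF15 and NUMBL, both at 0.011. For ITGAV they were IMPDH1 and CYBRD1, at 0.020 and 0.027, and for ITGB5 TPRG1L and FASN, at 0.017 and 0.021. For ITGA5 they were VASN and EIF2B4, at 0.038 and 0.042, and for ITGA1 PKP2 and CALD1, at 0.028 and 0.050. ITGA3 was nearest to DDX21 and LINC00467, at 0.022 and 0.038, and ITGA2 to LTBP1, at 0.028. ITGA4, ITGA11 and ITGB3 had no gene nearer than 0.12. With 4 points, close patterns arise among so many genes.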

How the data were processed

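The authors aligned reads of 4 droplet libraries with Cell Ranger and deposited matrices of raw UMI counts per gene and barcode, not normalized. Per the file headers, version 3.0.2 wrote the shScr and 3.0.0 the shAPC matrices. The sources differ on the kit (v2 or V3) and the virus (retroviral or lentiviral). Imputation and batch correction were not applied here.

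Counts were summed over kept cells of each of the 4 libraries (200 genes, 500 UMIs and 5% mitochondrial limits). CPM were given exact Poisson intervals, ratios exact conditional binomial intervals and shares exact binomial (Clopper-Pearson) intervals, all at 95%. PCR duplicates are removed by the UMIs, but intervals still cover counting error only. Calls used 1.5-fold with 0.5 counts added, over genes of at least 5 mean CPM. Phases were scored in scanpy 1.11.5 with lists of Seurat 5.3.0 on thinned cells. TMM (edgeR 4.0.16) and DESeq2 1.42.0 size factors served as alternatives of scale, without their tests. The interval code was tested on simulated data. No doublet caller was run, and cells of most UMIs were left out as an alternative.

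The subunits, gene lists and tests were chosen with earlier results of these data known. Unless said otherwise, named genes were drawn from the 10 subunits, APC, the 4 most abundant genes of each list, genes called at both days, and the 2 nearest patterns of each subunit. One of these nearest genes is not reported here. The G2M background over 1 to 5 mean CPM, the all-gene median for G2M and the all-gene share for ATF3 cells were chosen after seeing the data.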

Additional observations from a re-analysis of the deposited data

Results flagged for a closer look

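ITGA3 had opposite signs of the shAPC effect at the 2 days, which is why it is singled out: its log2 difference from shScr was 0.12 at day 3 and -0.21 at day 7. Each interval excluded 0. The difference between the days was -0.33 (-0.51 to -0.16), outside counting error, and was not tested, since each group is 1 library. Against the median of all genes both values were negative, at -0.19 and -0.17, and the difference between the days was 0.02.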

How the results depend on the processing

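With 1 library per group no replicate could be left out. No paired analysis was possible because each group holds 1 library. Of the counts of called subunits, those in shAPC against shScr at day 3 were 0 higher and 0 lower. They became 1 higher without the 5% of cells with most UMIs, without cells of high ATF3 and as a mean over cells, 2 lower with TMM, DESeq2 size factors, values relative to the median of all genes and a mean over cells, and 1 lower with totals free of mitochondrial and ribosomal protein genes. At day 7, 1 was higher relative to the median, with those totals, with all deposited barcodes, with a mitochondrial limit of 10%, without the 5% of cells with most UMIs and as a mean over cells. Lower at day 7 were 1 as a mean over cells and 3 with no filter on low values. In time with shScr, 2 were higher as a mean over cells and 2 with no filter. Lower were 1 with all barcodes, the 10% limit, at least 2000 genes, no cells of high ATF3 and a pseudocount of 1 CPM, and 0 at 2-fold. In time with shAPC, 1 was higher with TMM, DESeq2, the median, those totals, all barcodes, the 10% limit, at least 2000 genes, without the top 5% and without ATF3 cells, and 2 as a mean over cells. Against 3 lower, 2 were lower with TMM, DESeq2, the median, those totals and a mean over cells, 4 with no filter and 1 at 2-fold. ITGA2, ITGA3 and ITGB1 turned negative at day 3 with TMM, DESeq2 size factors and the median. The cause was not tested. Depth limits ITGA4, ITGA11 and ITGB3.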
